A study of Mus musculus with 4 samples.

Results

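The BCL2 family genes described here are the 10 of 32285 genes in the count matrices whose symbol is Bcl2, Bcl2l1, Mcl1, Bcl2a1a, Bcl2a1b, Bcl2a1d, Bax, Bak1, Bcl2l11 or Bbc3, and each has 1 row. They were chosen by symbol and not by their values. They were followed across cell classes in single-cell RNA-Seq (10x Genomics) of 4 libraries from male C57BL/6J mice of 20 weeks. Fracture callus and trabecular bone each gave 1 control library and 1 library of glucocorticoid (GC) treated animals. GC was prednisolone at 6.25 mg/kg/d and control mice received placebo, and cells were collected at week 2. The sample labels describe a slow-release pellet for every library, whereas the study's methods have pellets only where bone loss was modeled and daily injections after fracture. How many mice went into a library is not given in the sources used here. With 1 library per group there is no replicate, so no difference between control and GC was tested, and every interval below covers counting error only.

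Cells commit to the mitochondrial pathway of apoptosis when the effector proteins Bax and Bak1 open pores in the outer mitochondrial membrane and release cytochrome c. Antiapoptotic members (Bcl2, Bcl-xL from Bcl2l1, Mcl1 and A1 from the Bcl2a1 genes) hold the effectors and their activators in check, and the BH3-only proteins Bim (Bcl2l11) and Puma (Bbc3) counter them. In bone and marrow the family is best known from neutrophils, which turn over quickly and depend on Mcl1, from erythroblasts, which depend on Bcl-xL, and from lymphocytes, in which GC is known to raise Bim.

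After filtering, callus retained 6682 control and 6890 GC cells, with a median of 4257 and 3310.5 unique molecular identifiers (UMIs) per cell. Trabecular bone retained 3747 control and 4592 GC cells, with medians of 6421 and 5624. Between 6 and 10 cell barcodes were shared by each pair of libraries. Clusters were named from marker genes, and the family genes were left out of the genes used for clustering. Every class name below means cells like that type by its markers. The callus cluster with monocyte markers had more leading genes of another class than of its own and is called cluster 6. The unnamed cells were 1.71% of control callus and 4.78% of GC callus cells. Levels are CPM, the summed UMIs of a gene in a class and library scaled to the same total for each. For GC over control, 16 callus and 10 trabecular classes with at least 15 cells in both libraries were compared. Trabecular B cells (232 control and 16 GC cells) were left out, because leading genes of another class outnumbered their own in a cluster. Cluster 6 was kept although the same held for it. A gene counted as measured in a class with at least 50 UMIs over both libraries. A difference is called past 2-fold when the log2 ratio, with 5 CPM added to both levels, is at least 1 in size.

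The 3 Bcl2a1 genes encode near-identical A1 proteins and lie close together on chromosome 9. In GRCm38 with GENCODE vM21, Bcl2a1a spans chr9:88956900-88962419 (+), Bcl2a1b chr9:89199209-89207827 (+) and Bcl2a1d chr9:88723285-88731914 (-), each with 2 exons. Their transcripts were 98.2% (a and b), 98.8% (a and d) and 99.1% (b and d) identical. Of the 100-base windows in the last 400 bases of the transcript, which a 3' library reads, 24.6% of Bcl2a1a, 28.6% of Bcl2a1b and 53.2% of Bcl2a1d windows also occurred whole in another of the 3 genes. Reads from those stretches cannot be assigned to 1 gene, so the split between the copies is uncertain and their sum is given as well. The sum adds the 3 counts as deposited, so any such reads left uncounted are missing from it too. The likeness extends upstream of the annotated starts. The 95 bases below from RefSeq (GRCm38.p6) lie before all annotated Bcl2a1 transcripts, and the capital marks the 1 position at which the copies differ.
Bcl2a1a, chr9:88956714-88956808 (+): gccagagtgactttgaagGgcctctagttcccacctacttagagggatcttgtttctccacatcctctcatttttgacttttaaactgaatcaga
Bcl2a1b, chr9:89199023-89199117 (+): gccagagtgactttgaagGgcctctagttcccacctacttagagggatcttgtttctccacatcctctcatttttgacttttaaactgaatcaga
Bcl2a1d, chr9:88731956-88732050 (-): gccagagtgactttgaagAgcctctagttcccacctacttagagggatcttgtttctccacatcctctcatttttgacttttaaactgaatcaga

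Promoter windows of all 10 genes (15 windows, 250 bases before to 50 after a start, RefSeq) were searched on both strands for the NF-kB core GGGANTTNC and the glucocorticoid receptor motif AGAACA. The NF-kB letters occurred in 1 of the 15 windows, that of the second Bcl2l1 start, and in 4.26% of all 32851 windows of the genome. That window is shown because it held the only match, and the capitals mark the match, whose letters read on the strand opposite to the gene.
Bcl2l1, chr2:152830811-152830859 (-): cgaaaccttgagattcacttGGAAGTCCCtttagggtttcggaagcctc
AGAACA occurred in 0 of the 15 windows and in 19.0% of all windows, which says only that these letters are not in these windows.

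Mcl1 (chr3:95658788-95663176, +) encodes a short-lived antiapoptotic protein that granulocytes need to survive. In both tissues its level was highest in mature neutrophils, with 2706 CPM (control) and 1757 CPM (GC) in callus and 1796 and 2236 CPM in trabecular bone. In callus the next classes, cluster 6 (1390 CPM in control, 1252 in GC), immature neutrophils (1554 and 936) and macrophages (1146 and 1034), lay apart from mature neutrophils. Immature neutrophils overlapped each of the other two, which did not overlap each other. In trabecular bone immature neutrophils (819 and 891 CPM) and monocytes (844 and 803) followed and overlapped. Erythroblasts had the lowest Mcl1 in both tissues, 172 and 61.0 CPM in callus and 42.7 and 44.0 in trabecular bone. Their own markers, hemoglobin genes among them, summed to 330065 and 387550 CPM in callus and 835432 and 865133 in trabecular bone. By construction this lowers the CPM and the thinned shares of all other genes in erythroblasts, here and for the members below. For thinned shares, each cell with at least 1000 UMIs was thinned to 1000, and cells with fewer were left out. Of the control callus mature neutrophils kept, 87.0% (interval 85.1 to 88.8) held an Mcl1 UMI. The share was 3.61% in control trabecular erythroblasts (median 5917 UMIs per cell, against 1269 in the callus neutrophils). Without thinning, and with no cell left out for depth, the shares were 90.9% and 17.3%.

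Summed over the copies, A1 in callus was highest in mature neutrophils, whereas immature neutrophils there held 68.9 CPM in control and 75.4 in GC. Taken alone, Bcl2a1d was highest in callus conventional dendritic cells by the mean of the libraries, and mature neutrophils (134 CPM in control, 122 in GC) overlapped them. The summed Bcl2a1 level in mature neutrophils was 1178 CPM (control) and 1298 CPM (GC) in callus, against 68.4 and 117 CPM in trabecular bone. Callus was therefore 17.2-fold (15.7 to 18.9) above trabecular bone in control libraries and 11.1-fold above it in GC libraries. The mature neutrophils of the 2 tissues were not alike otherwise: the mature neutrophil markers summed to 67251 CPM in control callus and 376882 in control trabecular bone, and the cells held a median of 1269 and 5041 UMIs. The part of that difference in the A1 levels was not tested. Bcl2a1b took 74.3% of the summed UMIs in control and 75.8% in GC callus mature neutrophils, with the limit on assignment given above.

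Of callus mature neutrophils with at least 1000 UMIs, thinned to 1000, 52.6% (49.8 to 55.4) in control and 49.9% (46.5 to 53.4) in GC held a Bcl2a1 UMI. Without thinning the shares were 55.8% and 52.4%. In chondrocytes, which should lack A1, the thinned share was 0.120% in control callus (median 25974 UMIs per cell) and 0.562% in GC callus (5072), and the unthinned shares were 5.36% and 2.04%, so the neutrophil share was far above background. After mature neutrophils, callus conventional dendritic cells (493 CPM in control, 377 in GC) and macrophages (409 and 272) had the highest sums, and these overlapped over the libraries. In trabecular bone T cells had the highest sum, 237 CPM in control and 153 in GC. The control T cells there also carried 26803 CPM of mature neutrophil markers, against 4812 in GC. At the neutrophils' own ratio of Bcl2a1b to those markers, that RNA would carry 3.97 of the 204 CPM of Bcl2a1b in control T cells.

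Bcl2l1 (chr2:152780668-152831728, -), which gives Bcl-xL, was highest in callus in mature neutrophils (257 CPM in control, 219 in GC), erythroblasts (236 and 227) and immature neutrophils (239 and 201). These 3 overlapped over the libraries and stood apart from the next class, T cells (57.9 and 49.6). In trabecular bone erythroblasts led with 321 and 307 CPM, apart from mature neutrophils at 64.9 and 161. The immature neutrophils showed the widest gap between tissues for this gene, with 239 CPM in control callus against 15.3 in control trabecular bone, a 15.6-fold difference (11.8 to 20.5), and 201 against 20.9 in GC, 9.63-fold (7.46 to 12.3). Erythroblast markers were low in these cells (273 CPM in control callus immature neutrophils) and, at the erythroblasts' own ratio, would carry 0.196 of the 239 CPM. The immature neutrophils of the tissues were not alike otherwise. Control cells held a median of 2471 UMIs in callus and 9884 in trabecular bone. The callus cluster scored 5.32 for mature and 3.89 for immature neutrophil markers, whereas the trabecular clusters scored higher for the immature ones. Scores were taken against the other clusters of the same tissue, so they cannot be compared between tissues. By level, mature neutrophil markers summed to 231527 CPM in control callus and 344888 in control trabecular immature neutrophils. The part of these differences in the gap was not tested.

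Bcl2 itself (chr1:106538178-106714274, -) was highest in T cells and in NK or innate lymphoid cells in both tissues, but not in B cells. In callus NK or innate lymphoid cells (117 CPM in control, 149 in GC), T cells (85.8 and 136) and plasma cells (71.9 and 97.2) were highest, and each overlapped the next. In trabecular bone T cells held 327 and 435 CPM, apart from NK or innate lymphoid cells, which had enough cells only in GC (266 CPM, 21 cells that also carried 142806 CPM of erythroblast markers). B cells held less, with 29.5 and 13.2 CPM in callus and 12.1 and 40.1 in trabecular bone (9 and 2 UMIs), below trabecular hematopoietic progenitors (54.2 and 62.7). Mature neutrophils were near 0 throughout, with 1.96 and 5.68 CPM in callus and 1.49 and 1.45 in trabecular bone. Callus erythroblasts held no Bcl2 UMI, which allows up to 16.1 CPM in control and 26.2 in GC. Thinned to 1000 UMIs, 30.9% (23.9 to 38.6) of trabecular GC T cells and 0.227% of GC mature neutrophils held a Bcl2 UMI. The unthinned shares were 83.3% and 0.536%, at median depths of 6646 and 3895 UMIs per cell. An exon of Bcl2 overlaps D630008O14Rik on the other strand, and the strand setting of the counting is not given in the sources used here.

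Among the effectors, Bax (chr7:45461697-45466898, -) was highest in callus macrophages (281 CPM in control, 216 in GC) and osteoclasts (271 and 210), which overlapped, and in trabecular monocytes (186 and 211). It was lowest in trabecular erythroblasts (6.44 and 5.14 CPM), followed by mature (15.8 and 31.6) and immature neutrophils (25.2 and 26.1), which overlapped. Callus mature neutrophils held 86.3 and 108 CPM of Bax, 5.47-fold (4.35 to 6.89) above trabecular bone in control and 3.42-fold (2.79 to 4.16) in GC. Bak1 (chr17:27019810-27029009, -) was highest in callus osteoclasts (70.7 and 78.3 CPM) and trabecular monocytes (94.0 and 98.2). It was lowest in erythroblasts of both tissues, at 10.7 and 8.72 CPM in callus, where chondrocytes (9.82 and 10.1) overlapped them, and 0 and 1.84 in trabecular bone. A Bak1 exon overlaps Ggnbp1 on the other strand.

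Of the BH3-only genes, Bcl2l11 (chr2:128126038-128162547, +) was highest in callus NK or innate lymphoid cells (783 CPM in control, 966 in GC), mature neutrophils (621 and 1101) and B cells (491 and 730). Mature neutrophils overlapped both of the other classes over the libraries, whereas NK or innate lymphoid cells lay above B cells. Its lowest callus levels were in erythroblasts (37.6 and 34.9). Chondrocytes (62.1 and 73.4) were also low and overlapped stromal or skeletal progenitors (75.0 and 69.2) and control osteoclasts (65.3). In trabecular bone NK or innate lymphoid cells (336 CPM, GC only), T cells (276 and 236), plasmacytoid dendritic cells (241 CPM, control only) and mature neutrophils (244 and 186) were highest. Bbc3 (chr7:16308393-16318205, +), which gives Puma, had its highest callus level in erythroblasts (91.3 and 43.6 CPM, 17 and 5 UMIs). In trabecular bone early erythroid cells (79.7 and 102 CPM) were highest by the mean of the libraries, and hematopoietic progenitors (96.1 and 65.6) overlapped them. In control those progenitors, plasmacytoid dendritic cells (83.5), B cells (83.2) and mast cells or basophils (82.5) were above early erythroid cells. Immature neutrophils held the least Bbc3 in callus (7.95 and 12.6 CPM), next to mature neutrophils (8.34 and 17.0).

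**Figure D1:**
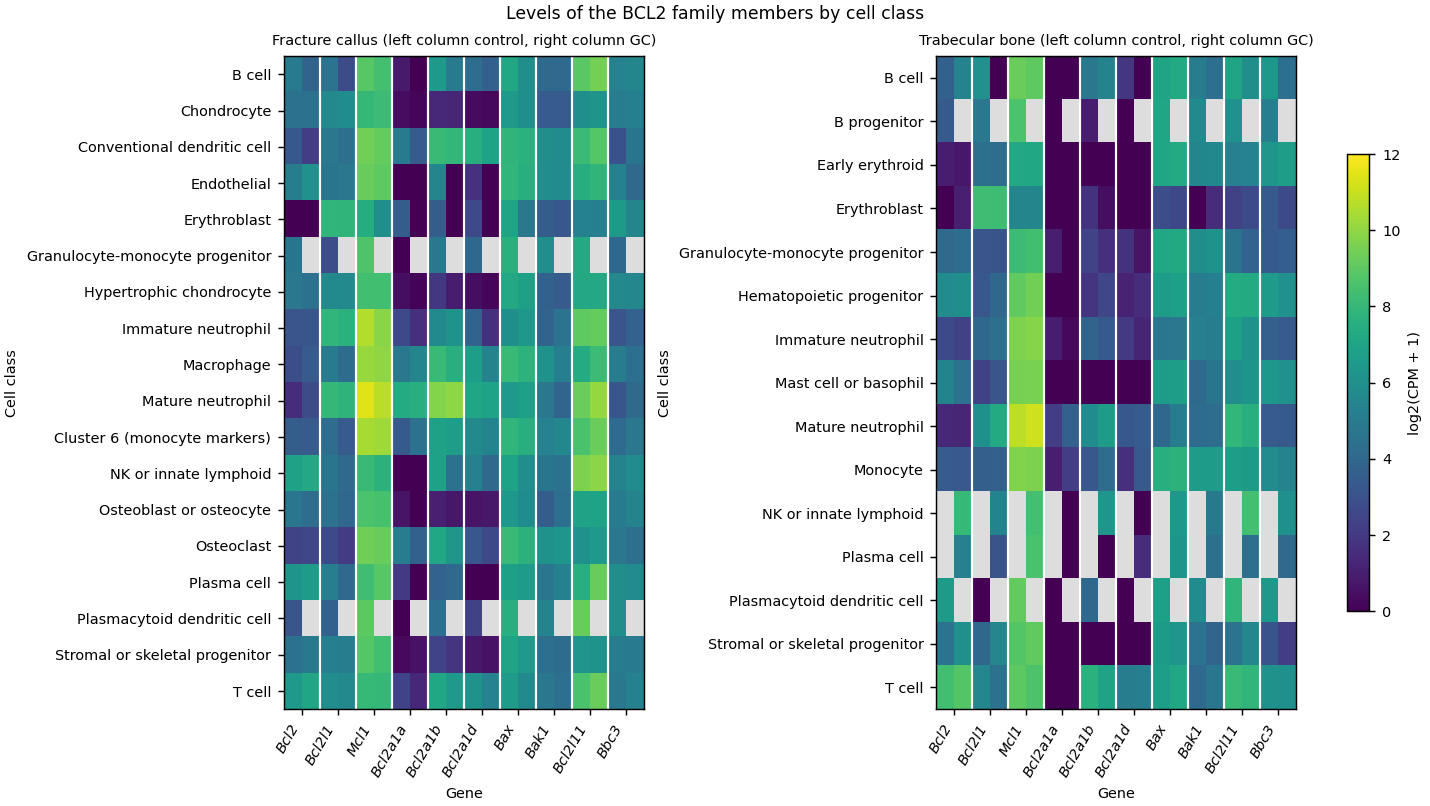
Levels of the 10 genes as log2(CPM + 1), by cell class (rows) and gene (columns), with control left and GC right in each pair and gray where a library had under 15 cells. Mcl1 is brightest in mature neutrophils of both tissues (2706 CPM in control callus), Bcl2a1b is brightest in callus mature neutrophils (875 CPM in control), and Bcl2 stands out in trabecular T cells (327 CPM in control).

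Genes whose levels ran most like those of a member were listed over 47 points, each a class in 1 library with at least 50 cells, among 8041 genes. The points share 4 libraries and differ in depth, so Pearson's r is a description. Bcl2 was most like Ctsw (0.85), Gramd3 (0.82) and Cd27 (0.82), which are lymphocyte genes in the case of Ctsw and Cd27. Bcl2l1 was most like Ube2b (0.83), Adipor1 (0.72) and Gabarapl2 (0.68), and Mcl1 like Rab7 (0.91), Rap1b (0.89) and Skap2 (0.89). Bcl2a1a was most like Il1rn (0.84), Clec4n (0.82) and Il1a (0.82). Bcl2a1b and Bcl2a1d were most like each other (0.91), with the limit on assigning their reads given above, followed by Tnip1 (0.88) and Gsap (0.87) for Bcl2a1b and by Cd274 (0.89) and Traf1 (0.88) for Bcl2a1d. Bax was most like Tomm20 (0.90), Adss (0.89) and Psmd11 (0.89), and Bak1 like Ube2l3 (0.88), Psma7 (0.88) and Mpdu1 (0.86). Bcl2l11 was most like Heca (0.93), March7 (0.92) and Kpna4 (0.89), and Bbc3 like Ap1ar (0.78), Mzt1 (0.78) and Wrn (0.76). Between members, the highest values outside the Bcl2a1 genes were 0.73 for Bax with Bak1 and 0.68 for Bcl2a1b with Bcl2l11.

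The comparison of GC with control asked which members differed with exposure in each tissue. Few did by 2-fold. In callus 96 pairs of a member and a class were measured, of which 1 was past 2-fold higher in GC and 6 were past 2-fold lower. Over all genes in the same classes 1.30% of 83543 pairs were past 2-fold higher and 1.82% lower. The median log2 ratio was -0.15 for the members and -0.00 for all genes. In trabecular bone 57 member pairs were measured, with 1 past 2-fold higher and 0 lower, against 1.23% higher and 0.970% lower of 50331 pairs. The medians were 0.06 for the members and 0.03 for all genes.

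Bcl2l11, the Bim gene, was the member that was most often higher in GC callus. Of 15 callus classes it was higher in GC in 14, with a median log2 ratio of 0.36, and in 10 of them the counting interval of the ratio lay above 1. Stromal or skeletal progenitors were the exception (75.0 CPM in control, 69.2 in GC, log2 ratio -0.11). Mature neutrophils held 621 CPM in control and 1101 in GC, 1.77-fold (1.65 to 1.91). The ratio was also 1.77-fold (1.37 to 2.30) in macrophages, at 167 and 296 CPM. T cells held 373 CPM in control and 608 in GC, 1.63-fold (1.43 to 1.85), and cluster 6 held 380 and 621, with an interval above 1. In conventional dendritic cells the levels were 285 and 460 CPM, 1.62-fold (1.32 to 1.98), and in B cells 491 and 730, 1.49-fold (1.32 to 1.68). NK or innate lymphoid cells differed less, at 783 and 966 CPM. The GC library of that class also carried 16981 CPM of erythroblast markers against 280 in control.

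Of the skeletal classes, hypertrophic chondrocytes (150 and 152 CPM) and osteoblasts or osteocytes (119 and 125) held similar Bcl2l11 in both callus libraries. Chondrocytes held somewhat more in GC, 62.1 and 73.4 CPM. Within chondrocytes the clusters went both ways, with 87.0 CPM in control and 66.1 in GC in cluster 3, and 38.3 and 42.8 in cluster 5. Cluster 2, with 65 control and 1162 GC cells, had the highest level, 117 CPM in control and 147 in GC. Plasma cells were the only callus class with Bcl2l11 past 2-fold, at 188 CPM in control (30 cells) and 600 in GC (17 cells), a log2 ratio of 1.65, where 3.26% of 1257 genes were past 2-fold higher. This rests on 60 and 111 UMIs from few cells.

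Being higher in every hematopoietic class was not rare. Bcl2l11 was higher in GC in all 10 hematopoietic callus classes other than erythroblasts, as were 8.76% of the 719 genes measured in all 10 (63 genes). Of the other 62 genes, 14 encode ribosomal proteins and 6 are mitochondrially encoded.

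Within callus mature neutrophils the libraries fell largely into different clusters, cluster 0 with 1394 control and 95 GC cells and cluster 1 with 161 control and 1117 GC cells, so each cluster may reflect its library as much as a cell state. Bcl2l11 was 625 and 654 CPM in cluster 0, with overlapping intervals, and 583 and 1141 CPM in cluster 1. The control cells of both clusters therefore held similar levels, as did the GC cells of cluster 0, and the GC cells of cluster 1 stood above them.

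**Figure D2:**
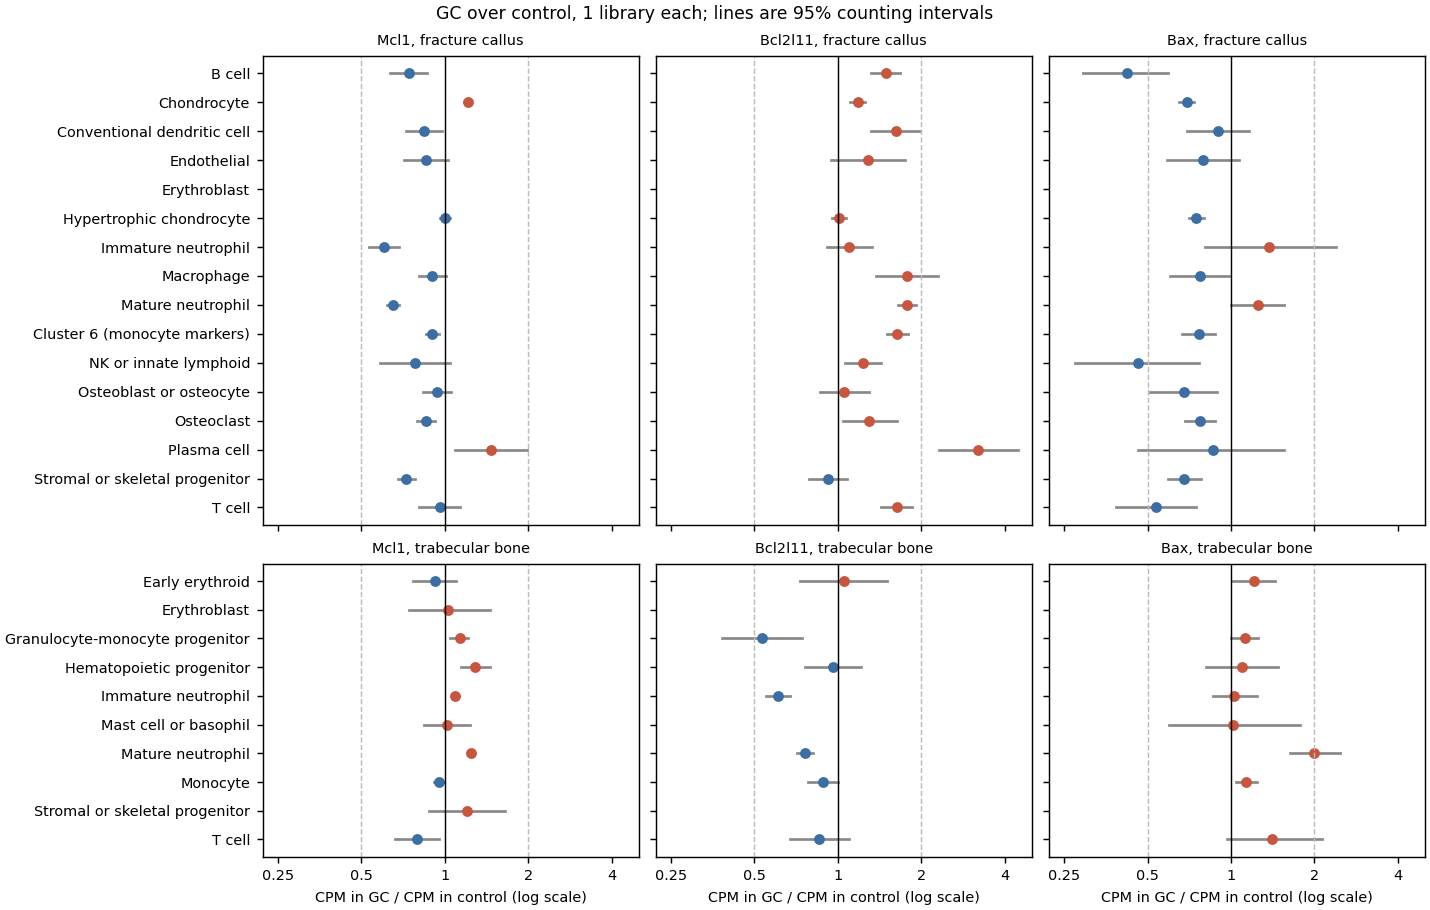
GC over control ratio of CPM on a log scale for Mcl1, Bcl2l11 and Bax, by class, in callus (top) and trabecular bone (bottom), with lines for 95% counting intervals, dashed lines at 2-fold, red above 1 and blue below. Classes with under 50 UMIs have no point. In callus Bcl2l11 lies above 1 in 14 of 15 classes and Bax below 1 in 13 of 15, and in trabecular bone Bax lies above 1 in 8 of 8. The share of all genes with such counts was not computed.

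In trabecular bone Bcl2l11 went the other way. It was lower in GC in 6 of 7 classes (median log2 ratio -0.22), with early erythroid cells the exception (36.6 and 38.4 CPM). How many of all genes were lower in as many trabecular classes was not computed. Mature neutrophils held 244 CPM in control and 186 in GC, 0.761-fold (0.714 to 0.811), and immature neutrophils 113 and 68.3, 0.606-fold (0.548 to 0.669). These are log2 ratios of -0.38 and -0.68. Over the alternative settings run they ranged from -0.72 to -0.05 in mature and from -0.91 to -0.09 in immature neutrophils, so their size depended on the processing. Immature neutrophil clusters 5, 7 and 9, which had at least 15 cells of each library, gave a lower GC level, 104 and 59.9 CPM in cluster 5, 193 and 131 in cluster 7 and 49.8 and 30.1 in cluster 9. Cluster 8, with 368 GC and 7 control cells, held 113 CPM in GC and had too few control cells to compare. Granulocyte-monocyte progenitors held 23.4 and 12.5 CPM (90 and 66 UMIs). With cells thinned to 1000 UMIs the log2 ratio was 0.42. Thinning cut these cells from medians of 24088 and 24995 UMIs and left few Bcl2l11 UMIs. No minimum count was applied there, so that value cannot decide the direction. T cells (276 and 236 CPM) and monocytes (104 and 92.2) had intervals that reached 1.

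Bax was mostly lower in GC callus and mostly higher in GC trabecular bone. In callus it was lower in 13 of 15 classes (median log2 ratio -0.38), with the interval below 1 in 10. In trabecular bone it was higher in 8 of 8 (median 0.17), with the interval above 1 in 4. All classes of a tissue compare the same pair of libraries. The share of all genes that lean 1 way in as many classes was not computed, so whether these counts are particular to Bax is not known. Callus B cells held 143 CPM in control and 60.2 in GC (log2 ratio -1.19), and NK or innate lymphoid cells 125 and 57.6 (-1.05). Both were past 2-fold, in B cells under all 15 alternative settings run and in NK or innate lymphoid cells under 10 of 15 (-1.21 to -0.88). Callus T cells held 96.5 and 51.9 CPM, chondrocytes 90.2 and 62.5, hypertrophic chondrocytes 148 and 111 and stromal or skeletal progenitors 127 and 86.4, none of them past 2-fold.

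The median log2 ratio of all genes was itself -0.16 in callus B cells, -0.15 in T cells and -0.08 in NK or innate lymphoid cells, so the Bax differences there were larger than the general shift. The empty droplets of control callus held 125 CPM of Bax. Control callus B cells carried chondrocyte markers at 8.36% of their level in empty droplets, and that share of the droplet RNA would carry 10.5 of their 143 CPM of Bax. The corresponding value in NK or innate lymphoid cells was 8.92 of 125 CPM. The GC callus matrix holds no empty droplets, so the same estimate was not possible there. In trabecular mature neutrophils Bax was 15.8 CPM in control and 31.6 in GC, 2.00-fold (1.63 to 2.47). With 5 CPM added this is a log2 ratio of 0.82, in a class where the median of all genes was 0.26. Over the 18 alternative settings run this log2 ratio ranged from 0.13 to 1.04, always higher in GC and past 2-fold in 1.

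Mcl1 was lower in GC in 12 of 15 callus classes (median log2 ratio -0.22). As for Bax, no share of all genes was computed beside its class counts in either tissue. The neutrophils differed most. Mature cells held 2706 CPM in control and 1757 in GC, 0.649-fold (0.619 to 0.681), and immature cells 1554 and 936, 0.603-fold (0.532 to 0.683). Both mature clusters were lower, 2776 and 1936 CPM in cluster 0 and 2034 and 1741 in cluster 1. Dissociation stress genes, which are raised by enzymatic digestion, moved in the same direction in these cells, with a sum of 6810 CPM in control and 3581 in GC mature neutrophils and 3847 and 2001 in immature neutrophils. Their part in the Mcl1 difference was not tested. Stromal or skeletal progenitors (453 and 328 CPM) and B cells (469 and 348) were also lower, by less than 2-fold.

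Plasma cells and chondrocytes were the callus classes with higher Mcl1 in GC. Chondrocytes held 251 and 303 CPM, and the difference came from cluster 2, which had 65 control and 1162 GC cells of low depth (median 2490 UMIs per cell in GC). Its Mcl1 level was 218 CPM in control and 545 in GC, and without it the log2 ratio of chondrocytes was -0.01. In trabecular bone Mcl1 was higher in 7 of 10 classes (median 0.08). Mature neutrophils held 1796 and 2236 CPM, 1.24-fold (1.22 to 1.27), which is close to the general shift of that class. Scaled by the median of ratios over genes, the log2 ratio was -0.03.

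The A1 genes were lower in several GC callus classes, and 4 of the 6 callus pairs past 2-fold lower were theirs, but not every copy or class went that way. Bcl2a1b was 86.1 CPM in control and 30.8 in GC in B cells (log2 ratio -1.35), where 4.32% of 4863 genes were past 2-fold lower. In NK or innate lymphoid cells it was 115 and 21.6 CPM (-2.17, 48 and 9 UMIs), where the share was 1.94% of 2633 genes. These 2 classes were also those of the Bax differences past 2-fold. Bcl2a1d in macrophages was 106 and 39.7 CPM (-1.31), against 1.64% of 3359 genes, and Bcl2a1a in osteoclasts 31.5 and 12.2 CPM (-1.09), against 1.02% of 7029. Bcl2a1a went the other way in cluster 6, with 9.44 CPM in control and 22.1 in GC (2.34-fold, 1.36 to 4.13), and was 27.2 and 43.7 CPM in macrophages (17 and 22 UMIs). Dissociation stress genes were lower in the same libraries, with sums of 3935 and 2048 CPM in B cells and 2717 and 1415 in NK or innate lymphoid cells, and their part in these differences was not tested. Neutrophil RNA in these cells, judged from the neutrophil markers, would carry 2.87 of the 86.1 CPM in control B cells and 7.17 of the 115 CPM in control NK or innate lymphoid cells.

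Summed over the copies, A1 was 409 CPM in control and 272 in GC in macrophages, 179 and 97.8 in osteoclasts and 221 and 127 in T cells, all lower by less than 2-fold. B cells (105 and 42.6) and NK or innate lymphoid cells (151 and 38.4) were past 2-fold. Endothelial cells held 21 UMIs in control (46.8 CPM) and 0 in GC, which allows up to 7.16 CPM. Mature neutrophils held 1178 and 1298 CPM and so did not share the lower level, with a ratio of 1.10-fold (1.04 to 1.17).

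Bcl2l1 gave the only trabecular pair past 2-fold with 5 CPM added. With the same addition, 2 pairs of low level fell just short. They were Bcl2a1d in monocytes (2.21 CPM in control, 9.30 in GC, 11 and 48 UMIs, log2 ratio 0.99) and Bcl2a1a in mature neutrophils (3.54 and 11.8 CPM, 31 and 114 UMIs, 0.97). Bcl2l1 in mature neutrophils was 64.9 CPM in control and 161 in GC, 2.48-fold (2.26 to 2.74). This is a log2 ratio of 1.25, where 2.80% of 7287 genes were past 2-fold higher and the median of all genes was 0.26. It was past 2-fold in 15 of 18 alternative settings, and not when scaled by the median of ratios (0.91), with the UMI cutoff alone (0.99) or in cluster 0 alone (0.96). The clusters shared by both libraries showed it as well, with 92.4 CPM in control and 185 in GC in cluster 0 (886 and 55 cells) and 30.7 and 98.2 in cluster 3 (551 and 103 cells). Most GC cells were in clusters 1, 2 and 4, which were almost all GC, at 98.0, 236 and 229 CPM. Control cells of cluster 13 held 81.5 CPM. Erythroblast markers were 2985 CPM in control and 6236 in GC mature neutrophils, and at the erythroblasts' ratio would carry 1.15 and 2.21 CPM of Bcl2l1. In callus the same class held 257 and 219 CPM.

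**Figure D3:**
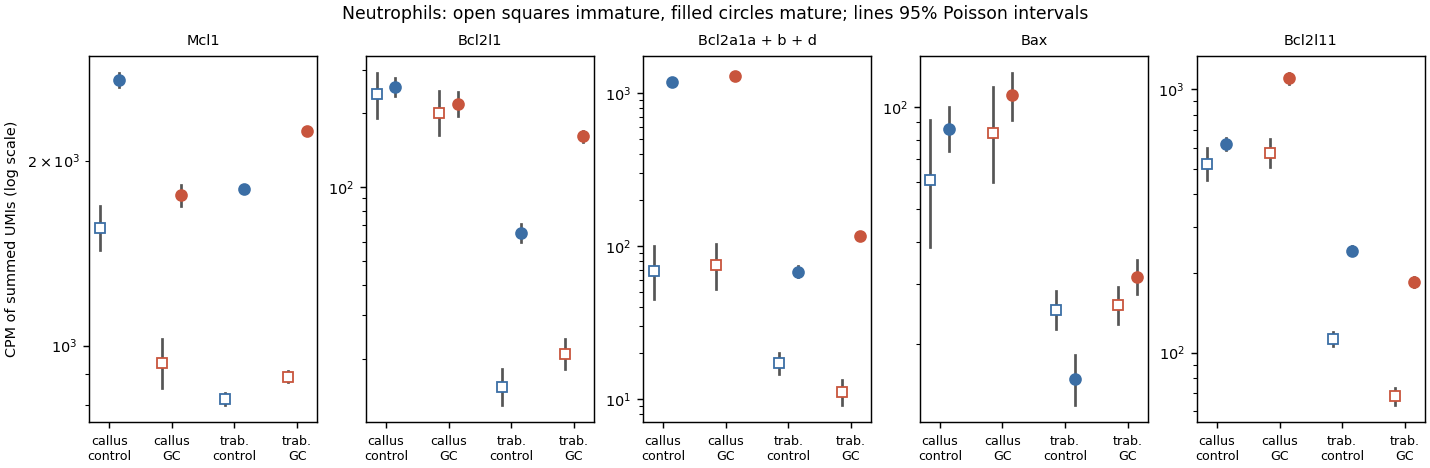
CPM on a log scale with 95% Poisson intervals for 5 readouts in immature (open squares) and mature (filled circles) neutrophils, control in blue and GC in red. Summed Bcl2a1 is near 1200 CPM in callus mature neutrophils (1178 and 1298) and at 68.4 and 117 in trabecular bone, and mature neutrophil Bcl2l11 is highest in GC callus (1101 CPM).

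The A1 sum in trabecular mature neutrophils, 68.4 CPM in control and 117 in GC, depended on the clusters. In cluster 4, where all 575 cells were from GC, it was 532 CPM, and in control cluster 13 it was 325 CPM, whereas the shared clusters held 76.4 and 50.2 (cluster 0) and 8.82 and 7.44 (cluster 3). Cluster 4 gave 841 of the 1131 GC UMIs, and of the 599 control UMIs cluster 0 gave 325 and cluster 13 gave 239. Bcl2a1b alone gave a log2 ratio of 0.71 for the class, but -0.81 in cluster 0 and -0.34 in cluster 3. Trabecular monocytes showed the same dependence. Their sum was 11.6 CPM in control and 31.4 in GC (log2 ratio 1.13), and 97 of the 162 GC UMIs came from the 24 GC cells of cluster 26, at 597 CPM.

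**Figure D4:**
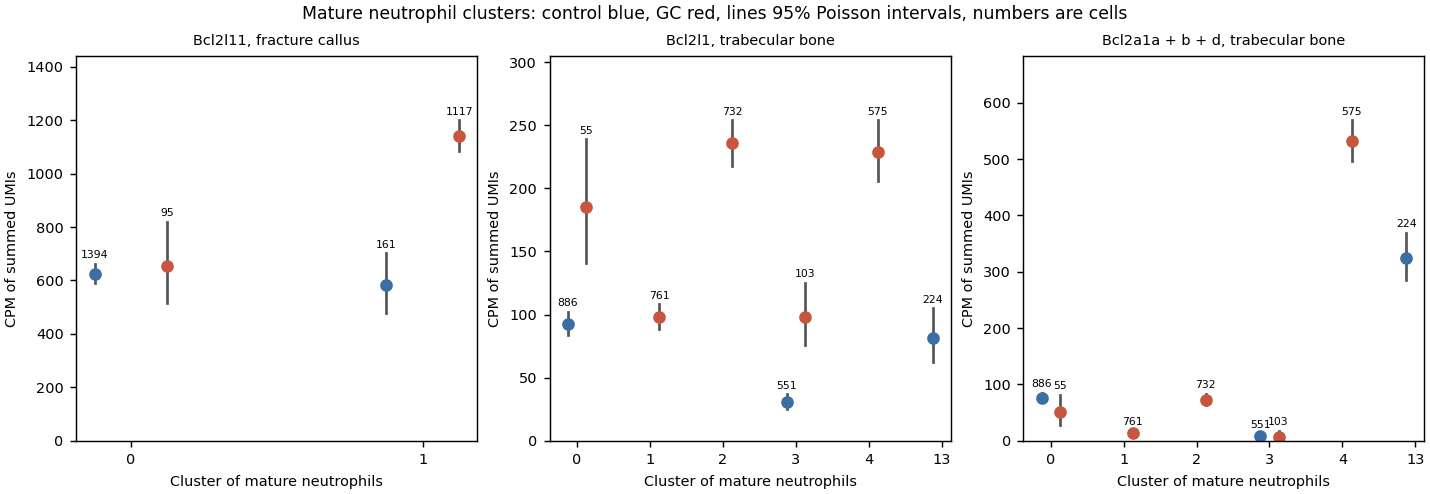
CPM with 95% Poisson intervals by mature neutrophil cluster, control in blue and GC in red, with cell numbers. Callus Bcl2l11 stands at 1141 CPM in GC cells of cluster 1 against 583 to 654 CPM in the other 3 groups, trabecular Bcl2l1 is higher in GC within clusters 0 and 3, and the trabecular A1 sum has its highest levels in clusters 4 (GC) and 13 (control).

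Bcl2, Bak1 and Bbc3 had no measured pair past 2-fold. Bcl2 in callus T cells was 85.8 CPM in control and 136 in GC, 1.58-fold (1.21 to 2.09), and in trabecular T cells 327 and 435, 1.33-fold (1.07 to 1.66). Bak1 was lower in callus macrophages (67.3 and 35.7 CPM) and mature neutrophils (26.5 and 14.2), and no Bak1 interval left 1 in trabecular bone. Bbc3 was lower in GC trabecular monocytes (54.4 and 40.3 CPM) and hematopoietic progenitors (96.1 and 65.6) and higher in early erythroid cells (79.7 and 102), and no callus interval left 1 among its 8 measured classes.

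Other genes of the apoptosis pathway, 38 in 8 lists, were read in the same way. In callus 275 pairs were measured, with 1 past 2-fold higher and 10 lower and a median log2 ratio of 0.00. In trabecular bone 183 pairs were measured, with 2 higher and 2 lower and a median of 0.06. The apoptosome and caspase list, which acts downstream of the pores, had 0 of 62 callus and 0 of 51 trabecular pairs past 2-fold. So did the other BH3-only genes, with 0 of 20 and 0 of 17. The other antiapoptotic genes (4 pairs) and the other effector (6 pairs), measured in callus alone, had 0. The inhibitor of apoptosis list had 4 of 42 callus pairs lower and 1 of 29 trabecular pairs higher. Regulators such as p53 targets had 3 of 77 callus pairs lower, and 1 higher and 2 lower of 46 trabecular pairs. Related mitochondrial genes had 1 higher and 2 lower of 29 in callus and 0 of 19 in trabecular bone, and death receptor genes 1 lower of 35 and 0 of 21. Birc3, an NF-kB target that restrains caspase-8 signaling, was 202 CPM in control and 92.5 in GC in B cells and 106 and 46.1 in immature neutrophils. Birc5, best known as a mitotic gene, was 19.0 and 2.36 CPM in chondrocytes and 72.1 and 17.9 in macrophages. The chondrocytes of the libraries lay in different clusters, such as cluster 23 with 72 control and 3 GC cells and cluster 2 above, and their part in the Birc5 difference was not tested.

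Cdkn1a, the p53 target p21, was 486 CPM in control and 175 in GC in callus mature neutrophils and 384 and 111 in immature neutrophils. It was also lower in trabecular immature neutrophils (101 and 41.3) and T cells (357 and 144). Bnip3, a mitochondrial BH3-like protein induced by hypoxia, was lower in callus mature neutrophils (74.5 and 25.6) and cluster 6 (103 and 38.3) and higher in stromal or skeletal progenitors (109 and 246). Foxo3 in callus mature neutrophils (87.3 and 31.2) and Casp8 in callus B cells (55.8 and 25.0) were the others lower. The largest trabecular difference was Birc5 in T cells, at 6.48 CPM in control (2 UMIs) and 76.4 in GC (100 UMIs), with a ratio interval of 3.18 to 98.7. Mdm2 in mast cells or basophils (57.8 and 122 CPM) was the other one higher.

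Glucocorticoid response genes were read as a check on the treatment labels beside these results. In trabecular mature neutrophils 8 of 8 were measured and 4 were past 2-fold higher, with Fkbp5 at 12.1 CPM in control and 104 in GC, Tsc22d3 at 76.8 and 247 and Zbtb16 at 1.60 and 31.6. In callus mature neutrophils 7 were measured, with 0 past 2-fold higher and 1 lower, and the list summed to 3428 CPM in control and 1706 in GC. Fkbp5 there was 12.3 and 17.7 CPM and Tsc22d3 31.4 and 34.8, with intervals of the ratio that included 1. Callus T cells held 9.65 and 34.1 CPM of Fkbp5, which was past 2-fold. Fkbp5 was also past 2-fold higher in callus B cells. The whole list did not rise in these 2 classes, with sums of 640 and 636 CPM in T cells and 662 and 627 in B cells. Of the 7 list genes measured in B cells, 3 were higher in GC, with a median log2 ratio of -0.07. The list sum was higher in GC in callus chondrocytes, at 1146 and 2007 CPM. In callus chondrocytes Sgk1 and Dusp1 were past 2-fold higher and Ddit4 past 2-fold lower. Not every class is given here.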

How the data were processed

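The deposited matrices hold UMI counts per gene and barcode, not normalized. Per the labels the authors used a 10x Genomics kit called v2, and the file headers name Cell Ranger 4, whereas the submitters' processing notes name Cell Ranger 5.0.1, Seurat 3.2.0 and mm10. In 3 matrices all 6794880 barcodes are listed. The GC callus matrix lists 7762 barcodes with at least 500 UMIs, which were taken as called. The authors' cell labels were not used here.

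Cells of the other libraries were called by a UMI cutoff or by a multinomial test against barcodes ranked 45001 to 90000 (adjusted p of 0.01, 10000 simulations). Barcodes with under 200 genes, over 10% mitochondrial UMIs or the highest doublet scores (0.8% per 1000 cells) were removed. Both libraries of each tissue were clustered jointly on 2000 variable genes, 30 components and 15 neighbors (leidenalg 0.10.2, resolution 1, Python 3.11.15), leaving out the family, pathway, glucocorticoid and stress genes, unless a gene was also a cell marker. Names came from 231 marker genes for 24 classes through a rule set after the clusters had been seen. With 1 library per group no test between conditions was run. Library totals were 95852254, 64388215, 41239842 and 45876714 UMIs (control callus, GC callus, control and GC trabecular bone). CPM carry exact Poisson, shares Clopper-Pearson and ratios exact conditional intervals, all at 95%. They cover counting error only and were checked on simulated counts. A count of 0 allows up to 3 UMIs. Positions come from GENCODE vM21 (GRCm38), to which 32158 of 32285 gene IDs matched, and sequences from RefSeq.

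All 10 members are named. Likeness was read for members with at least 500 UMIs among genes of at least 50 CPM in 1 point, naming 3 each. Pathway genes are named where past 2-fold the same way in at least 2 classes of a tissue, or among the 5 largest per direction and tissue. The members and gene lists were chosen with earlier results of these data known.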

Additional observations from a re-analysis of the deposited data

Results flagged for a closer look

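Of 30 pairs of a member and a class measured in both tissues, 5 had log2 ratios of GC over control of opposite sign in callus and trabecular bone, with both counting intervals off 1. The share of all genes that meet the same rule was not computed, so whether the count is particular to the members is not known. The difference between tissues was not tested, since each ratio rests on 1 library per group. Mcl1 was -0.62 in callus and 0.32 in trabecular mature neutrophils, and -0.73 and 0.12 in immature neutrophils. The trabecular mature value became -0.03 when scaled by the median of ratios. Bcl2l11 was 0.82 in callus and -0.38 in trabecular mature neutrophils, and Bcl2l1 was -0.23 and 1.25 in the same class. For Bcl2l11 the callus value was 0.07 in cluster 0 alone, and the trabecular value rose to -0.05 at most over the alternative settings. Bax was -0.38 in callus cluster 6, which has monocyte markers, and 0.18 in trabecular monocytes. The neutrophil classes of the tissues differed in depth and marker level as given above. The study's methods, unlike the labels, have GC given differently to the fracture and bone loss mice. The part of either in these differences was not tested, and tissue and way of giving GC cannot be told apart.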

How the results depend on the processing

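No paired analysis was possible because each group has 1 library, and for the same reason no replicate could be left out. With 1 CPM added, member pairs past 2-fold higher in GC numbered 2 in callus and 4 in trabecular bone, and other pathway pairs 2 higher in callus and 4 higher and 4 lower in trabecular bone. With 20 CPM added, pathway pairs numbered 6 lower in callus and 1 higher and 1 lower in trabecular bone. A minimum of 20 UMIs gave 11 member pairs lower in callus and 2 higher in trabecular bone, with pathway pairs at 2 higher in callus and 5 lower in trabecular bone. No minimum gave 2 member pairs higher and 15 lower in callus and 3 higher in trabecular bone. Scaling by the median of ratios gave 0 trabecular member pairs higher (Bcl2l1 in mature neutrophils then at 0.91) and 3 callus pathway pairs higher. Leaving hemoglobin, mitochondrial and ribosomal protein genes out of the totals gave 3 trabecular member pairs higher. The UMI cutoff alone gave 3 member pairs higher and 1 lower in callus and 0 higher in trabecular bone. GC callus had no cutoff, so the callus counts set control cells of at least 7534 UMIs against all GC cells. Trabecular member pairs higher numbered 2 without doublet removal, at resolutions 0.5 and 2, with each library clustered alone and without shared barcodes. Callus pathway pairs higher numbered 0 at both resolutions, and callus member pairs higher 2 with each library clustered alone. The mean over cells of CPM gave 4 trabecular member pairs higher and 1 lower. Cells thinned to 1000 UMIs gave 0 member pairs higher and 2 lower in callus and 2 higher in trabecular bone, with pathway pairs at 3 higher and 5 lower in callus and 0 higher and 1 lower in trabecular bone. Without cluster 6, plasma cells and NK cells, a choice made after seeing the data, no callus member pair (0) was past 2-fold higher. The number of pairs measured and the share of all genes past 2-fold were not computed under these settings. Whether a changed count is particular to the members is therefore not known. The cause of these changes was not tested beyond what each setting alters by construction.

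The Bcl2a1 share of control callus mature neutrophils was 55.8% without thinning and 64.9% at 2000 UMIs, and the Bcl2 share of trabecular GC T cells 83.3% and 58.6%. Thinning left out cells below its depth, so the shares at different settings are over different sets of cells. The log2 ratios that changed sign were Mcl1 in trabecular mature neutrophils (-0.03, median of ratios), Bcl2l11 in trabecular granulocyte-monocyte progenitors (0.42, thinned cells with few UMIs of the gene left) and Mcl1 in chondrocytes (-0.01, without cluster 2). So did Bcl2a1b in trabecular mature neutrophils (-0.81 in cluster 0 alone, -0.34 in cluster 3 alone) and Bcl2a1a there (-0.15 in cluster 3 alone). The cluster settings were added after seeing the data. Bcl2l1 in trabecular mature neutrophils kept its direction in all 18 alternatives run (0.91 to 1.53, 15 of them past 2-fold), as did Bcl2l11 in callus mature neutrophils in 17 (0.07 in cluster 0 alone to 0.96).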
